A study of Mus musculus with 6 samples.

Results

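The ISG15 conjugation pathway was followed through its 5 named genes in mouse leukemia cells: the modifier Isg15, the E1 enzyme Uba7, the E2 enzyme Ube2l6, the E3 ligase Herc6 and the protease Usp18. They were found by Entrez gene ID among the 27179 genes of the count table, and 5 of 5 passed the filter on low counts that left 12916 genes for testing. The cells, named A/E9a;NRASG12D and given as a cell line in the labels, are an acute myeloid leukemia from the spleen of C57BL/6 mice treated for 3 days with vehicle or with panobinostat, an inhibitor of histone deacetylases. GFP-positive cells that excluded propidium iodide were sorted, and RNA was sequenced from 3 libraries per group in a study whose title concerns differentiation that needs the interferon receptor IFNAR. Both groups therefore share the same leukemia, strain, tissue and sort, and differ in the labels by treatment alone. The deposited counts of both groups are named as those of WT tumor cells, without saying which gene WT refers to. The age of the animals is not given in the labels, and nothing says that libraries stem from separate mice. The p-values therefore reflect only how these libraries scattered, possibly for technical reasons.

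ISG15 is a small protein made of a pair of ubiquitin-like folds, and it is attached to lysines of other proteins by a chain of enzymes that mirrors ubiquitin conjugation. UBA7 activates it, UBE2L6 carries it, and in the mouse HERC6 is the main ligase that transfers it to its targets, many of them freshly made proteins. USP18 removes it again, and apart from that protease activity USP18 binds the receptor chain IFNAR2 and dampens type I interferon signalling. The genes of all these proteins are known as interferon-stimulated genes, and free ISG15 can also leave the cell and act as a cytokine through the integrin LFA-1.

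The 5 genes lie on 4 chromosomes of the assembly GRCm38: Isg15 on chromosome 4 (156199424 to 156200818), Uba7 on chromosome 9 (107975567 to 107984056), Ube2l6 on chromosome 2 (84798828 to 84810003), and Herc6 (57580992 to 57665136) and Usp18 (121245906 to 121270917) on chromosome 6. RefSeq promoter windows of that assembly, running from 250 bases before to 50 after the start of a transcript, were held for 4 members, all but Usp18. They were searched on both strands for GAAA followed by any 2 bases and again GAAA, the core of the element bound by interferon regulatory factors, and for the shorter AAANNGAAA, which lies inside it. Both motifs were chosen with these windows known. The stretches with matches are printed here, 5′ to 3′ on the strand of the gene, because they are the only member windows with either motif; capitals mark matches of either motif.
Isg15: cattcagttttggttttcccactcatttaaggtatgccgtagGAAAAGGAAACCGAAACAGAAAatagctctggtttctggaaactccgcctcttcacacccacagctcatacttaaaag
Uba7: actcagtctagTTTCACTTTtggtttcctg
The Isg15 stretch (chr4:156200819-156200938, minus strand) covers the 120 bases before its start and holds 3 overlapping matches of the longer motif, between 78 and 57 bases before the start. The Uba7 stretch (chr9:107975529-107975558, plus strand) is 30 bases long and holds 1 match of AAANNGAAA on the opposite strand, 27 to 19 bases before the RefSeq start. The windows of Ube2l6 and Herc6 held neither motif, which says only that these letters are not within those bases. Among all 32851 promoter windows, 3.44% held the longer motif and 10.6% held AAANNGAAA. Of 46 windows of other type I interferon-stimulated genes, 22 held the longer motif and 28 the shorter. The motif TTCNNNGAA, the core of the element bound by STAT dimers, was in 0 of the 4 member windows and in 8.30% of all windows.

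Each of the 5 members rose with panobinostat, from 2.13-fold for Uba7 to 15.6-fold for Isg15, and in all 5 the lowest treated library lay above the highest vehicle library. Over all tested genes 11.3% were called higher (edgeR quasi-likelihood F test, Benjamini-Hochberg adjusted p below 0.05), and 21.9% were higher without overlap between the groups. The median log2 fold change was 1.70 over the 5 members and 0.01 over all tested genes. Levels are given as CPM, read counts brought to a common library size with TMM factors, which correct for composition. RNA was measured on bulk sorted cells, so more cells with a transcript and more RNA per cell cannot be told apart.

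**Figure D1:**
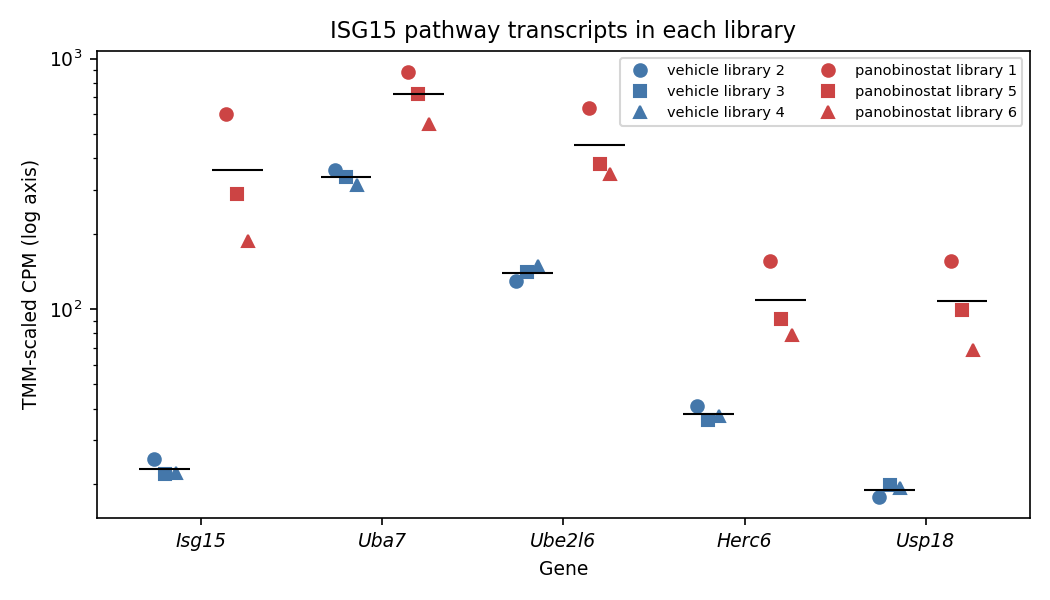
TMM-scaled CPM on a log axis for the 5 genes (horizontal axis) in each of the 6 libraries, with vehicle in blue, panobinostat in red and the group mean as a black line. For every gene the 3 red points lie above the 3 blue points, and panobinostat library 1 is the highest.

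Isg15, the modifier itself, had levels of 25.2, 21.9 and 22.1 CPM in vehicle libraries 2, 3 and 4. Panobinostat libraries 1, 5 and 6 had 600.2, 289 and 188 CPM. The vehicle libraries were close together, and the treated libraries spread over a 3.20-fold range with library 1 at the top and library 6 at the bottom. The means were 23.1 ± 1.86 and 359 ± 215 CPM (SD, n = 3 each), and the log2 fold change was 3.96 ± 0.43 (SE; edgeR adjusted p = 0.0041). By log2 fold change Isg15 ranked 32 among the 12916 tested genes. Its fold was 10.3 without panobinostat library 1, and it remained called in every fit that left out 1 library.

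Uba7, the activating enzyme that commits ISG15 to the conjugation chain, was the most abundant member in vehicle and changed least. Vehicle libraries 2, 3 and 4 had 360, 338 and 314 CPM. Panobinostat libraries 1, 5 and 6 had 885, 725 and 549.6 CPM. The groups were apart, though the lowest treated library stood only 1.53-fold above the highest vehicle library. The means were 337 ± 23.1 and 719.9 ± 168 CPM (SD, n = 3 each), a log2 difference of 1.09 ± 0.17 (SE; edgeR adjusted p = 0.0092). The call was lost without vehicle library 4 (edgeR adjusted p = 0.057).

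Ube2l6, the conjugating enzyme that receives ISG15 from UBA7, was at 129, 141 and 149 CPM in vehicle libraries 2, 3 and 4. In panobinostat libraries 1, 5 and 6 it was at 632, 381 and 347 CPM. Libraries 5 and 6 were close to each other and library 1 stood above both. The gene rose 3.25-fold, from 139.5 ± 10.1 to 454 ± 156 CPM (SD, n = 3 each; log2 1.70 ± 0.23 SE; edgeR adjusted p = 0.0059).

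Herc6, the ligase, was found at 41.1, 36.1 and 37.6 CPM in vehicle libraries 2, 3 and 4. Its levels were 156, 91.6 and 79.0 CPM in panobinostat libraries 1, 5 and 6. It rose 2.84-fold, from 38.2 ± 2.56 to 109 ± 41.2 CPM (SD, n = 3 each; log2 1.51 ± 0.25 SE; edgeR adjusted p = 0.0098). Again library 1 was highest and the other treated libraries lay near each other. The call was lost without vehicle library 2 (edgeR adjusted p = 0.052) and without vehicle library 4 (0.057).

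Usp18, the protease that strips ISG15 from proteins and restrains the interferon receptor, was the least abundant member by CPM in vehicle, at 17.8, 19.9 and 19.3 CPM in vehicle libraries 2, 3 and 4. It was at 156, 99.4 and 68.7 CPM in panobinostat libraries 1, 5 and 6. The treated libraries fanned out in the order seen for Isg15. The rise was 5.69-fold, from 19.0 ± 1.05 to 108 ± 44.3 CPM (SD, n = 3 each; log2 2.51 ± 0.28 SE; edgeR adjusted p = 0.0042), and Usp18 ranked 145 among all tested genes by log2 fold change.

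The calls were set beside those of all genes under each alternative. All 5 members were called with DESeq2 (14.5% of genes higher), limma-voom (10.6%), DESeq2 size factors in edgeR (11.4%), library size alone (8.79%) and no filter on low counts (7.30%). When vehicle library 2, 3 or 4 was left out, 4, 5 and 3 members were called, against 3.28%, 5.64% and 2.29% of genes. When panobinostat library 1, 5 or 6 was left out, 5 members were called each time, against 16.8%, 7.58% and 8.82% of genes. The lost members were Uba7 and Herc6 alone.

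**Figure D2:**
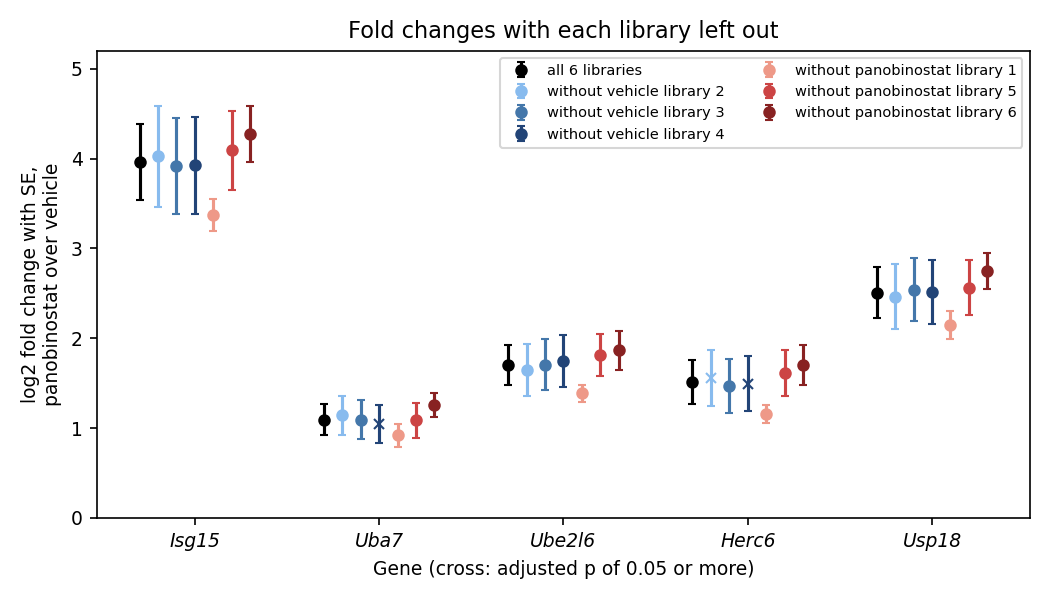
Log2 fold changes (panobinostat over vehicle) with their SE for the 5 genes, from all 6 libraries in black and with each library left out in colour; crosses mark an adjusted p of 0.05 or more. The fold changes are lowest without panobinostat library 1, and the 3 crosses belong to Uba7 and Herc6 without a vehicle library.

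The treated libraries kept one order in the pathway: library 1 above library 5 above library 6 in 5 of 5 members. That order held in 17.5% of all tested genes, in 36.7% of the 1460 genes called higher and in 38 of 43 tested interferon-stimulated genes other than the members. No such order was shared in vehicle, where library 2 was highest for Isg15, Uba7 and Herc6 and lowest for Ube2l6 and Usp18. The spread of the vehicle libraries was also smaller. The coefficient of variation ran from 5.55% (Usp18) to 8.04% (Isg15) in vehicle and from 23.3% (Uba7) to 59.9% (Isg15) with panobinostat.

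Globin and macrophage transcripts had that order in the treated libraries. Other marker sums did not, except that of the plasmacytoid dendritic cell markers when Bst2 was included. Adult globin genes took 4.40%, 2.275% and 2.045% of the counts in panobinostat libraries 1, 5 and 6, against 0.433% to 0.557% in vehicle. The 12 macrophage markers summed to 49.1, 28.8 and 15.8 CPM in those libraries and to between 11.5 and 17.7 CPM in vehicle. Of the 10 tested ones edgeR called 2 higher, Vcam1 and Siglec1, against 11.3% of all tested genes. DESeq2 called 3 (14.5% of all genes higher) and limma-voom 0 (10.6%). The log2 fold changes of the 10 ran from 0.20 to 2.65 with a median of 1.51. Both edgeR calls were lost when vehicle library 2, 3 or 4 or panobinostat library 5 was left out (edgeR adjusted p from 0.065 to 0.15). None of the 12 was at 0 counts throughout. The 8 markers of plasmacytoid dendritic cells other than Bst2, which is itself interferon-stimulated, summed to 21.5, 12.6 and 17.0 CPM with panobinostat and to 17.1 to 21.0 CPM in vehicle. With Bst2 the 9 markers of those cells summed to 257, 215 and 171 CPM with panobinostat and to 92.2 to 104 CPM in vehicle. Siglech, a defining marker of those cells, was at or near 0 in both groups, at most 0.103 CPM in vehicle and 0.0315 CPM with panobinostat. T and NK markers summed to at most 16.7 CPM in any library, B and plasma cell markers to at most 27.2 CPM, and monocyte and neutrophil markers to 13.0 to 19.9 CPM in vehicle. With panobinostat the monocyte and neutrophil sum was 23.5, 38.7 and 30.1 CPM in libraries 1, 5 and 6, lowest in library 1. The part of the erythroid and macrophage RNA in the pathway's rise was not tested. The 8 markers of blood progenitors and mast cells chosen for the leukemia cells summed to 2672 to 3069 CPM in vehicle. In panobinostat libraries 1, 5 and 6 they summed to 2827, 4716 and 3772 CPM, again lowest in library 1. Of the 8, edgeR called 3 higher (Gata2, Gata1 and Myb), against 11.3% of all tested genes. Among the 8 markers Kit, the stem cell factor receptor of progenitors and mast cells, was between 163 and 321 CPM over the 6 libraries. Ptprc, the pan-leukocyte antigen CD45, was between 1.77 and 4.43 CPM, and the myeloid integrin Itgam between 0.189 and 0.489 CPM.

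To compare levels between genes, CPM were divided by the length of the union of a gene's GENCODE exons in kb. In vehicle the order was Uba7 at 106 ± 7.23 CPM per kb, Ube2l6 at 89.5 ± 6.46, Isg15 at 30.5 ± 2.45, Usp18 at 10.7 ± 0.595 and Herc6 at 8.02 ± 0.538 (SD, n = 3 each). With panobinostat it was Isg15 at 475 ± 284, Ube2l6 at 291 ± 99.8, Uba7 at 225 ± 52.5, Usp18 at 61.0 ± 25.0 and Herc6 at 22.8 ± 8.64 CPM per kb. Each of the 3 libraries of a group showed its group's order. The transcript of the modifier thus moved from below those of its E1 and E2 to above both, while that of the ligase was the lowest of the 5 in all 6 libraries. Taken over libraries, the levels of Isg15, Ube2l6 and Uba7 overlapped in the treated group, and Uba7 and Ube2l6 in vehicle were separated by little (lowest 98.2 against highest 95.5 CPM per kb).

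**Figure D3:**
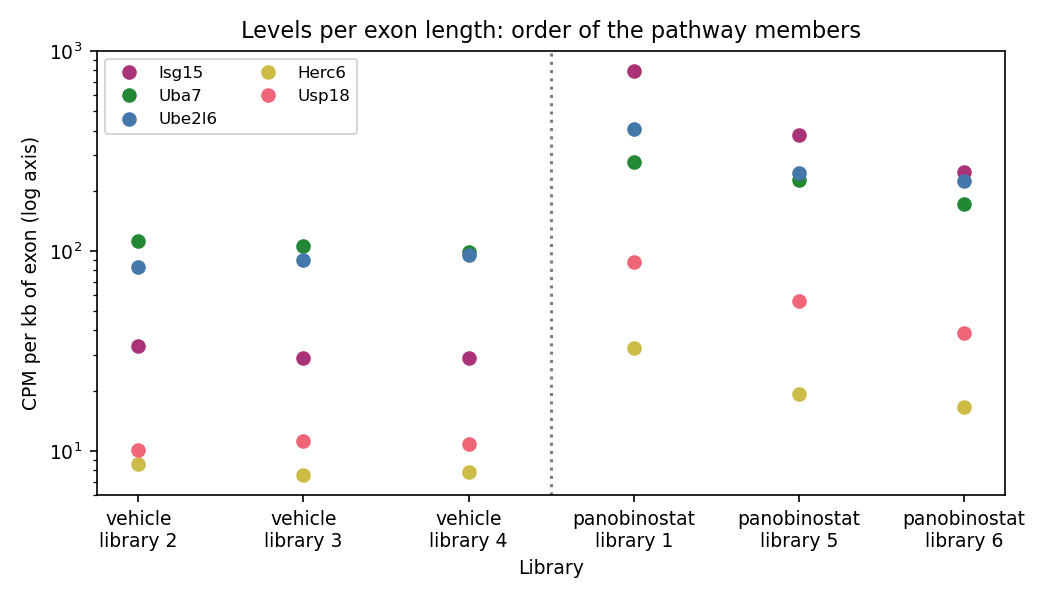
CPM per kb of exon on a log axis for the 5 genes in each library, vehicle to the left of the dotted line and panobinostat to the right. Isg15 lies between Ube2l6 and Usp18 in the vehicle libraries and above all other members in the panobinostat libraries.

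How unequally the members changed can be read from count ratios within a library, which need no scaling between libraries. The ratio of Isg15 to Uba7 counts was 0.0701, 0.0649 and 0.0704 in vehicle libraries 2, 3 and 4. In panobinostat libraries 1, 5 and 6 it was 0.678, 0.398 and 0.342. It was 6.60-fold higher with panobinostat on average, so the transcript of the modifier gained on that of its activating enzyme. The ratio of Isg15 to Usp18 was 1.41, 1.10 and 1.15 in vehicle and 3.85, 2.90 and 2.73 with panobinostat. That is 2.58-fold higher, so the modifier's transcript gained on that of its protease as well. These are RNA counts, and protein or conjugate levels are not part of these data. The ratio of Herc6 to Usp18 was 2.30, 1.81 and 1.95 in vehicle and 0.999, 0.921 and 1.15 with panobinostat. Raw counts of the ligase, whose exons are longer, thus exceeded those of the protease in vehicle and were near equal to them after treatment. Per kb of exon Herc6 was below Usp18 in every library, with means of 8.02 against 10.7 in vehicle and 22.8 against 61.0 with panobinostat. The smallest difference was between Ube2l6 and Herc6, whose ratio was 1.15-fold higher with panobinostat, at 3.14, 3.90 and 3.96 in vehicle and 4.06, 4.16 and 4.40 with panobinostat. In 10 of 10 pairs the ratios of the groups did not overlap. The pairs share genes and libraries, so they are not independent, and the share over all gene pairs was not computed. Each pair had an exact 2-sided permutation p of 0.1, also 0.1 after Benjamini-Hochberg adjustment over the 10 pairs, which is the smallest value that 3 against 3 libraries can give.

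No relative of ISG15 passed the test. Of 13 tested genes of ubiquitin and the other ubiquitin-like modifiers, 0 were called by edgeR (4 at an unadjusted p under 0.05, 0 by DESeq2 and 0 by limma-voom). Over all tested genes edgeR called 11.3% higher and 9.72% lower. The log2 fold changes of the 13 ran from -0.24 to 0.33 with a median of -0.04. Nedd8, the modifier of cullin ligases, was at 44.6, 45.8 and 48.0 CPM per kb in vehicle libraries 2, 3 and 4. It was at 51.6, 41.4 and 40.7 CPM per kb with panobinostat (libraries 1, 5 and 6). Isg15 was below Nedd8 in all 3 vehicle libraries and above it in all 3 treated ones.

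Among E1 enzymes, which activate each modifier, Uba7 was the only tested one called higher. Of the 9 others edgeR called 0 higher and 2 lower, against 11.3% and 9.72% of all tested genes. The 2 were Sae1 (-0.34 ± 0.09, log2, SE; edgeR adjusted p = 0.044), a subunit of the SUMO-activating enzyme, and Nae1 (-0.32 ± 0.09; adjusted p = 0.045), a subunit of the NEDD8-activating enzyme. Both calls were lost without any 1 library other than panobinostat library 1 (edgeR adjusted p from 0.053 to 0.17). Uba2, the partner of Sae1, had a log2 difference of -0.36 ± 0.11 (adjusted p = 0.052), and Uba1, the main ubiquitin E1, one of 0.25 ± 0.11 (0.13). For Uba6, Uba3, Atg7 and Mocs3 the log2 differences lay between -0.28 and 0.09 (adjusted p from 0.42 to 0.97). Per length Uba1 was above Uba7 in each vehicle library, at 129, 121.5 and 119 CPM per kb (libraries 2, 3 and 4). It was below Uba7 in each treated one, at 165, 141 and 134 CPM per kb (libraries 1, 5 and 6). Uba7 accounted for 21.7 ± 0.888% of the summed E1 level per length in vehicle and 38.0 ± 5.30% with panobinostat (SD, n = 3 each; exact permutation p = 0.1).

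Among 32 other tested E2 enzymes, which carry the activated modifiers, 4 were called higher and 5 lower by edgeR, against 11.3% and 9.72% of all genes. The highest were Ube2h (1.28 ± 0.16, log2, SE), Ube2o (0.99 ± 0.16), an E2 and ligase of late red cell precursors, and Ube2r2 (0.50 ± 0.13). The lowest were Ube2c (-0.84 ± 0.13) and Ube2s (-0.64 ± 0.11), both E2 enzymes of the anaphase-promoting complex, and Ube2t (-0.60 ± 0.17), the E2 of the Fanconi pathway. Of these 6, Ube2h and Ube2c were called in every fit with 1 library left out, and the other 4 were lost in at least 2 of those fits (edgeR adjusted p from 0.053 to 0.15). Ube2l6 had the largest log2 fold change of the 33 tested. It rose from 8.35 ± 0.560% to 22.0 ± 4.50% of the summed E2 level per length (SD, n = 3 each; exact permutation p = 0.1). Ube2l3, a ubiquitin E2 of the same subfamily, was at 40.9 ± 1.64 and 37.6 ± 1.93 CPM per kb.

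**Figure D4:**
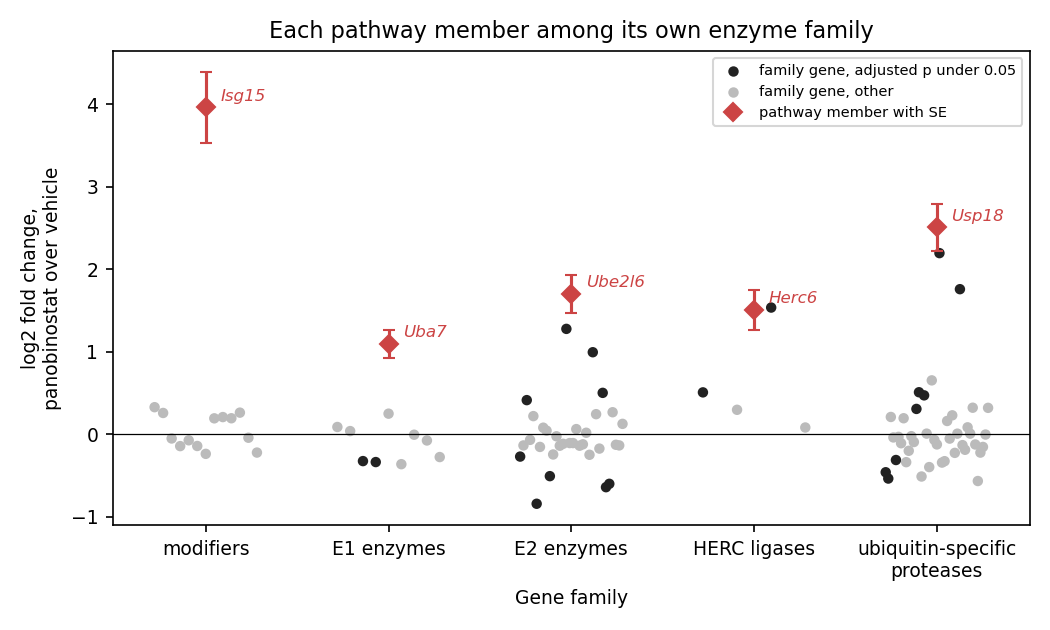
Log2 fold change (panobinostat over vehicle) of each tested gene by family, with pathway members as red diamonds with SE and the other family genes as dots, black where the adjusted p was under 0.05. Isg15, Uba7, Ube2l6 and Usp18 are the highest point of their family, and Herc6 lies beside Herc3.

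Of the 4 other HERC ligases of the mouse, 2 were called higher, against 11.3% of all tested genes. Herc3 rose from 1.05 ± 0.278 to 3.05 ± 0.687 CPM (SD, n = 3 each; log2 1.54 ± 0.30 SE; edgeR adjusted p = 0.015), beside 1.51 for Herc6, at a level far below that of Herc6. Herc1 rose by 0.51 ± 0.09 (log2, SE; adjusted p = 0.012), and both calls were lost without vehicle library 3 or 4 (0.054 to 0.077). Herc2 (0.30 ± 0.10; adjusted p = 0.076) and Herc4 (0.08 ± 0.09; 0.52) did not pass. Per length Herc6 ranked below Herc4, Herc1 and Herc2 in every vehicle library, and with panobinostat it ranked 1, 3 and 3 of the 5 in libraries 1, 5 and 6. For other enzymes linked to ISG15, Trim25, a ligase of the RNA sensor RIG-I that is itself modified by ISG15, rose from 164 ± 22.0 to 255.5 ± 6.66 CPM (SD, n = 3 each; edgeR adjusted p = 0.013; 0.057 without vehicle library 4). Ube2e1, a ubiquitin E2 able to carry ISG15, fell by 0.51 ± 0.11 (log2, SE; edgeR adjusted p = 0.019), a call that was lost without any 1 vehicle library (0.064 to 0.084). Arih1, a ring-between-ring ligase, had a log2 difference of -0.08 ± 0.09 (adjusted p = 0.52).

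Among 41 other tested ubiquitin-specific proteases, 5 were called higher and 3 lower by edgeR, against 11.3% and 9.72% of all genes, and the median log2 fold change was -0.05. The highest were Usp35 (2.19 ± 0.43, log2, SE; 3.00-fold without panobinostat library 5), Usp44 (1.76 ± 0.33), a protease of the mitotic checkpoint, and Usp25 (0.51 ± 0.13). Usp35 and Usp44 were at 1.90 and 2.23 CPM in vehicle, far below Usp18. The lowest were Usp10 (-0.54 ± 0.12), Usp1 (-0.46 ± 0.13), which acts on Fanconi proteins, and Usp14 of the proteasome (-0.31 ± 0.09). Each of the 6 calls was lost when vehicle library 2 or 4 was left out, and some in other fits too (edgeR adjusted p where lost from 0.052 to 0.14). By summed level per length Usp18 held 1.43 ± 0.130% of the family in vehicle and 7.47 ± 2.66% with panobinostat (SD, n = 3 each; exact permutation p = 0.1), and its rank among 49 genes went from 27 to 2 by group mean.

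USP18 acts at the interferon receptor, and of 8 genes of that axis 4 were called higher and 1 lower, against 11.3% and 9.72% of all tested genes. Stat2, which brings USP18 to the receptor, rose from 49.8 ± 2.43 to 154.5 ± 47.1 CPM (SD, n = 3 each; edgeR adjusted p = 0.0051). Irf9, a DNA-binding subunit of the interferon-activated transcription complex, rose from 91.3 ± 7.20 to 234 ± 49.8 CPM (0.0043). Both were called in every fit with 1 library left out. The receptor chain Ifnar1 rose by 0.48 ± 0.12 (log2, SE; edgeR adjusted p = 0.030; lost without vehicle library 2, 3 or 4 or panobinostat library 5, 0.062 to 0.13). Ifnar2, the chain that USP18 binds, differed by 0.34 ± 0.13 (0.098), the kinase Tyk2 by 0.40 ± 0.14 (0.076) and the kinase Jak1 by 0.18 ± 0.13 (0.35), and none of these 3 passed. Skp2, a subunit of the ligase that marks USP18 for degradation, fell by 0.72 ± 0.18 (0.033), and this call was lost without vehicle library 2, 3 or 4 or panobinostat library 5 (0.052 to 0.12).

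Both chains of LFA-1, the receptor of secreted ISG15, were called higher, against 11.3% of all tested genes. Itgb2, the beta chain, had 99.5, 116 and 110.3 CPM in vehicle libraries 2, 3 and 4. It had 206, 271 and 225.5 CPM in panobinostat libraries 1, 5 and 6 (edgeR adjusted p = 0.0042). Itgal, the alpha chain, was at 102, 140.3 and 113 CPM and at 152, 412 and 262 CPM in the same libraries (0.040). In both chains library 1 was the lowest of the treated libraries, unlike in the conjugation genes. The Itgal call was lost without any 1 library except panobinostat library 1 (edgeR adjusted p from 0.070 to 0.14) and with limma-voom.

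Of the 43 other type I interferon-stimulated genes tested, 42 were called higher and Nmi was not, against 11.3% of all tested genes. With 1 library left out, 34 to 42 genes of that list were called higher. That list was chosen with earlier results of these data known. The members lay within its range, at 1.09 to 3.96 against 0.26 to 5.30 (log2 fold change). The median log2 fold change of those 43 genes was 1.79, so a typical member of the list rose 3.47-fold. Only 2 of the 43 had a larger log2 fold change than Isg15, 16 had a larger one than Usp18, 24 than Ube2l6, 28 than Herc6 and 37 than Uba7. In vehicle 0 of the 43 had a higher CPM than Uba7 and 1 had a higher CPM than Ube2l6.

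The genes with the most alike pattern were found by the root mean square difference between log2 CPM profiles over the 6 libraries, each centred on its own vehicle mean. For Isg15 they were Cecr2, a bromodomain protein (0.16), Irf7, the transcription factor that amplifies interferon production (0.19), and Ifit1bl2, a relative of the antiviral IFIT proteins (0.19). Cecr2 and Ifit1bl2 were far less abundant in vehicle, at 0.619 and 0.484 CPM. For Uba7 they were the lysosomal enzyme gene Naglu (0.048), Clca3a1 (0.075) and Ypel5 (0.075). For Ube2l6 they were Tent5c, a poly(A) polymerase (0.058), Oas1a, an oligoadenylate synthetase (0.081), and Trim34a (0.087). For Herc6 they were Iqcd (0.097), Parp10, an ADP-ribosyltransferase (0.11), and Marchf3, a membrane ubiquitin ligase (0.12). For Usp18 they were Irgm2, an interferon-inducible GTPase (0.092), the oligoadenylate synthetase Oas3 (0.16) and the alpha globin gene Hba-a1 (0.16), which went from 1809 to 10526 CPM. Reads of Hba-a1 and Oas1a may be shared with near-identical copies. Between members the closest pair was Ube2l6 and Herc6 (0.18) and the farthest Isg15 and Uba7 (1.95).

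The genes beside the members on the chromosome were mixed in direction. Of the 20 tested genes that flank the members, 2 on each side, 5 were called higher and 2 lower, against 11.3% and 9.72% of all tested genes. The other 13 were not called, and the median log2 fold change of the 20 was 0.41. The gap to the member ran from 167 bases (Inka1) to 999679 (Klrg1, from Usp18), and Nt5c3 lay 656984 bases from Herc6. Isg15 had the most called neighbours. Agrn, which encodes the matrix protein agrin and lies 1891 bases from Isg15, rose from 133 ± 6.67 to 334 ± 52.5 CPM (SD, n = 3 each; edgeR adjusted p = 0.0034), and AW011738, 2466 bases away on the other side, from 27.8 ± 2.22 to 85.2 ± 27.1 CPM (0.0073). Perm1, on the same side at 2444 bases and with AW011738 inside its interval, did not pass (log2 0.68 ± 0.23 SE, edgeR adjusted p = 0.076). On the side of Agrn, 9430015G10Rik fell by 0.67 ± 0.15 (0.021). Beside Uba7, Inka1, 167 bases away, differed by 0.10 ± 0.11 (0.54) and Mst1r by 0.42 ± 0.33 (0.38), while Traip, a ligase of DNA replication, fell by 0.74 ± 0.16 (0.022) and Cdhr4 rose by 1.19 ± 0.26 (0.020).

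Beside Ube2l6, Ypel4 was called (2.51 ± 0.68, log2, SE; edgeR adjusted p = 0.039) and its fold was 2.35 without panobinostat library 1. Clp1, Smtnl1 and Timm10 did not pass (adjusted p from 0.10 to 0.47). Beside Herc6, Ppm1k rose by 0.98 ± 0.26 (0.037) from 1.16 CPM, and Nt5c3, Pyurf and Lancl2 did not pass (0.17 to 0.45; Pyurf was 0.946-fold without panobinostat library 1, against a log2 difference of 0.27 in all libraries). Beside Usp18 none of the 4 flanking genes was called: Tuba8 came nearest (0.98 ± 0.29; 0.051), and Pex26, Slc6a13 and Klrg1 had adjusted p values from 0.24 to 0.26. Of the 7 called neighbours, all but Agrn and AW011738 were lost when vehicle library 2 or 4 was left out, and some in other fits too (edgeR adjusted p where lost from 0.060 to 0.13). Gm46878 overlaps Isg15 by 80 bases, Gm19244 overlaps Herc6 by 337 and Gm44148 overlaps Usp18 by 15743 in the RefSeq table. None of these 3 has a row in the count table, and without a known strand setting their reads cannot be told from those of the members.

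The libraries held between 25794869 and 32571961 counts and detected 16077 to 16626 genes. A single count was worth 0.0315 to 0.0403 CPM, and the smallest count behind any member value was 552, for Usp18 in vehicle library 2. Libraries are called by the leading number of their column in the count table, which names the group and no replicate. The names carry further numbers whose meaning is not given. The middle number is 1 for vehicle libraries 2 and 3 and 4 for panobinostat libraries 1 and 6. It is 2 for vehicle library 4 and 3 for panobinostat library 5. Whether libraries that share a middle number are independent is not known. The last number is 1 for panobinostat library 1 and 3 for the other 5 libraries. Whether that number bears on the higher values of library 1 was not tested; without that library all 5 members were called. Scaling by library size alone shifted the median log2 fold change over tested genes (0.01 with TMM) to -0.10 and the split of calls from 1460 higher and 1255 lower to 1135 higher and 2065 lower. The members kept their calls under that scaling, with log2 fold changes from 0.98 for Uba7 to 3.84 for Isg15.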

How the data were processed

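RNA was sequenced from 6 libraries, 3 per group. The table deposited by the authors holds raw counts, whole numbers by Entrez ID. Per the submitters' processing notes, the tools were HISAT2 2.1.0, featureCounts (Subread 2.0.0), cutadapt 2.1, bcl2fastq 2.17.1.14, FastQC 0.11.6 and limma, with build mm10. Annotation, strand and multi-mapping settings were not given in the sources used here. Names came from RefSeq for GRCm38 (25275 of 27179 IDs), and 0 columns were left unused. Exon lengths came from GENCODE M21, which may differ from the annotation used for counting.

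Genes were filtered with filterByExpr, scaled by TMM and tested with edgeR 4.0.16 (R 4.3.3), quasi-likelihood F test, treatment as the only term, Benjamini-Hochberg over 12916 genes, threshold 0.05. Standard errors were taken from F as the absolute log2 fold change over its square root. Count ratios used a count plus 0.5. The fit was tested on simulated counts. Alternatives were DESeq2 1.42.0, limma-voom 3.58.1, other scalings, no filter and leaving out each library. The members and lists were chosen with earlier results of these data known. Named were the members, small related lists whole, the 3 highest and 3 lowest called genes of large families, 2 neighbours per side and 3 most alike genes, without predicted genes; a few genes of these lists enter the counts but are not reported here by name. Protein sequences were not used here.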

Additional observations from a re-analysis of the deposited data

How the results depend on the processing

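No member and no called result listed here changed sign, though the balance of calls turned with library size alone (1135 higher and 2065 lower, against 1460 and 1255), and uncalled genes near 0 such as Pyurf did change sign. Of 378 recomputed values 318 kept their direction and call or stayed within 1.5 times. The 5 members were called with DESeq2 size factors, library size alone, no filter, DESeq2 and limma-voom. With 1 library left out, 3 to 5 members were called (4 without vehicle library 2, 3 without vehicle library 4), and log2 fold changes ran from 0.92 to 1.26 for Uba7 and from 1.16 to 1.70 for Herc6. In those fits the genes called higher ran from 303 to 2192 and lower from 135 to 1864. Called lower were 0 to 2 E1 enzymes, 1 to 7 E2 enzymes, 0 to 3 ubiquitin-specific proteases, 0 to 1 of the USP18 axis and 0 to 1 of the other ISG15 enzymes. Called higher were 1 to 4 E2 enzymes, 0 to 7 proteases, 0 to 3 HERC ligases, 0 to 1 of the other ISG15 enzymes and 1 to 2 LFA-1 chains. Of the other type I interferon-stimulated genes 34 to 42 were called higher. Neighbours called higher numbered 2 to 6 and lower 0 to 3; these alternatives for neighbours were chosen after seeing the data. Library size alone gave 1 lower modifier, 2 higher E2 enzymes and 3 higher and 8 lower proteases (5 and 3 with TMM). No filter gave 0 lower E1 enzymes, DESeq2 5 lower proteases and limma-voom 1 LFA-1 chain. Fewer libraries leave fewer degrees of freedom; the cause of the other shifts was not tested. No paired analysis was possible because the columns of the count table carry no replicate number of the sample titles. Depth did not limit the member values, all of 552 counts or more.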
